A study of Mus musculus with 5 samples.

Results

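Lysosomal enzymes and membrane proteins were followed through the cell types of the adult mouse kidney, in animals with and without a functional Fame gene (Ccdc198). The set holds 35 listed genes, and all 35 were found by symbol among the 17389 genes of the count matrix, where they took 328522 UMIs, or 0.543% of all UMIs. A UMI is a unique molecular identifier, so that each captured mRNA molecule is counted once. By role the list was divided into 5 membrane proteins, 10 proteases, 11 glycosidases, 3 sulfatases and 6 genes of lipid breakdown or granulin, and the files were read for their level in every cell type and every library.

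Single cells from the kidneys of littermate FVB/Ant mice were barcoded in droplets, and polyadenylated RNA was read from its 3′ end. The Fame knockout (KO) carries stop codons inserted by CRISPR behind the start codon and is represented by the libraries KO female, KO male and KO mix. Wild type (WT) is represented by WT female and WT mix, and a mix library pools male with female animals. No wild type library comes from males alone. How many mice went into each library is not stated. The p-values for genotype and run therefore measure the spread between libraries, which may be technical. Those for sex measure how the difference between male and female cells varies between the pairs described below, which may be technical too.

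Lysosomes are acidic organelles in which proteins, glycans and lipids taken up or discarded by the cell are broken down, each by its own set of hydrolases. Most of these enzymes are made at the endoplasmic reticulum and sent to the lysosome by the mannose 6-phosphate receptors, while heavily glycosylated membrane proteins line the organelle. In the kidney, lysosomes are a hallmark of the proximal tubule, where filtered proteins are taken up by megalin and cubilin and degraded, and in tissue macrophages they serve the digestion of engulfed material.

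The libraries held 1794 to 3567 cells and 9791091 to 15950717 UMIs each, 14197 cells in all, with medians of 2413.5 to 3016 UMIs per cell. The annotation places the 3 libraries of a single sex in run 2 and both mixed libraries in run 3, and it names them only as runs. Median mitochondrial shares were 28.4% to 29.4% in run 3 and 12.6% to 15.3% in run 2. Fame mRNA was present in both genotypes, at 148, 127 and 83.1 CPM (its UMIs per 1000000 UMIs) in KO female, KO male and KO mix, against 196 and 71.5 CPM in WT female and WT mix, so its level does not check the genotype labels. Of 14172 barcodes, 25 occurred in more than 1 library. Marker lists of the authors' cell types were highest in the type of that name, apart from the proximal tubule list, which was highest in PT_f, and the parietal epithelium list, whose type had too few cells to be ranked.

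Many lysosomal promoters carry the CLEAR element, an E-box-like sequence that the transcription factor TFEB binds, and its core was searched for on both strands in RefSeq windows of GRCm38.p6 that run from 250 bases before to 50 bases after an annotated start of a gene. A window was at hand for 31 members. Ctsa, Lgmn and Psap have 2 windows each, and a gene counts as holding the letters where any of its windows does. The stretches of Ctsa and Lgmn shown here lie before a start inside the gene, downstream of its outermost end. The palindrome CACGTG was present in 10 of the 31 windows (32.3%), compared with 10.9% of the 12802 genes of the matrix that have a window. TCACGTG or its reverse complement CACGTGA, each of which contains that palindrome, was present in 9 of 31 (29.0%), compared with 6.49%. The stretches of those 9 members are shown 5′ to 3′ on the strand of the gene because they are what these promoters have in common, with the matched letters in capitals. A match is a run of letters and not a measured binding site.
Lamp1, chr8:13159087-13159160, plus strand: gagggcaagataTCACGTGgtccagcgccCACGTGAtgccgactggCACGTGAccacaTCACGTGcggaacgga
Ctsa, chr2:164833748-164833772, plus strand: atgagcaaactgTCACGTGAtgcag
Ctsd, chr7:142387907-142387938, minus strand: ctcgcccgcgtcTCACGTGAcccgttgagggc
Lgmn, chr12:102439124-102439154, minus strand: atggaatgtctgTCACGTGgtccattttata
Gaa, chr11:119267810-119267840, plus strand: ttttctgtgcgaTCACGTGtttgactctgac
Gla, chrX:134601181-134601245, minus strand: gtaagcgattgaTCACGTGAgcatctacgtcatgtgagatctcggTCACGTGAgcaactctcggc
Glb1, chr9:114401017-114401047, plus strand: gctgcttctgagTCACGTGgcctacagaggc
Naglu, chr11:101070008-101070038, plus strand: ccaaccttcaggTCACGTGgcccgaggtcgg
Arsa, chr15:89477425-89477453, minus strand: ttcaactcagtgTCACGTGttgtctgctc

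Lamp1 carried 4 copies of the core within 74 bases directly before its start, and Gla carried 2 within 65 bases. The other 7 stretches show 1 copy each, although the windows of Ctsa and Ctsd hold 2. Of the proteases, Ctsa, Ctsd and Lgmn held the longer match, and of the glycosidases Gaa, Gla, Glb1 and Naglu did.

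Levels are given as CPM of the UMIs summed over the cells of a type in a library, where at least 20 cells of the type were present, and 18 of the 19 annotated types had such a sum in at least 2 libraries. Because the clusters were built from these genes among others, the levels are a description. The members were highest in myeloid cells and in the convoluted proximal tubule, PT_c. Myeloid cells held the highest mean of 13 members, Idua with 0 to 2 UMIs a library among them, and PT_c of 8, the straight proximal tubule PT_s and the small proximal cluster PT_f of 2 each, and the proximal cluster PT_2 of 1. Of the remaining 9 members, 2 were highest in the long descending limb (Juxt_ldl_LOH), 2 in podocytes (GL_podo) and 1 each in the distal convoluted tubule (DCT), vascular smooth muscle (VSMC), fibroblasts (Fib), glomerular endothelium (GL_endo) and the cluster GL_sc.

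**Figure D1:**
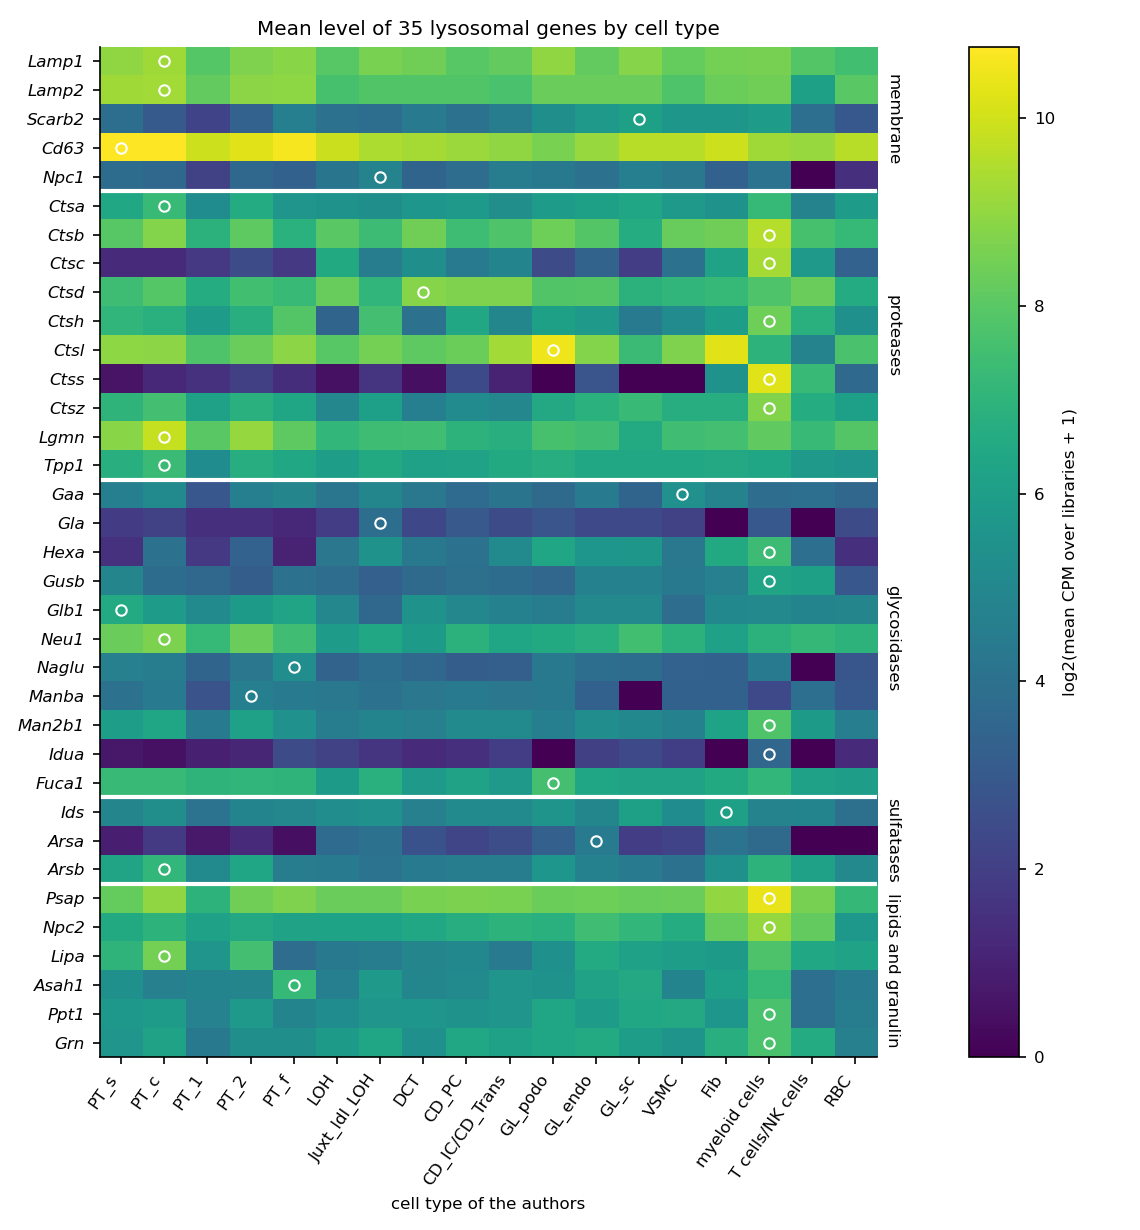
Mean level of each of the 35 members (rows, grouped by role) in each of 18 cell types (columns), as log2 of the mean CPM over libraries plus 1. Ctss stands out in myeloid cells, at 1214 CPM, and Ctsc in myeloid cells and LOH, at 626 and 91.2 CPM, whereas Cd63, Lamp1 and Lamp2 are bright across the columns.

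All members summed reached 9230 ± 2390 CPM in myeloid cells (SD, n = 3), with 6479 in KO male, 10424 in KO mix and 10789 in WT mix. The KO male value rests on 20 cells and 40904 UMIs and lies below both others. PT_c followed with 7702 ± 796 CPM (n = 5) and PT_s with 6163 ± 1145 CPM (n = 5). Fibroblasts held 5716 ± 452 CPM (n = 2), PT_2 5391 ± 204 (n = 5), PT_f 5291 ± 860 (n = 4) and podocytes 5064 ± 34.9 (n = 2). None of these 4 differs from its neighbour in the order beyond the spread, and neither do myeloid cells and PT_c, while PT_c was above PT_s in each of the 5 libraries. The lowest sums were 3138 ± 237 CPM in the proximal cluster PT_1 (n = 5) and 2802 CPM in red blood cells (RBC, n = 4).

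**Figure D2:**
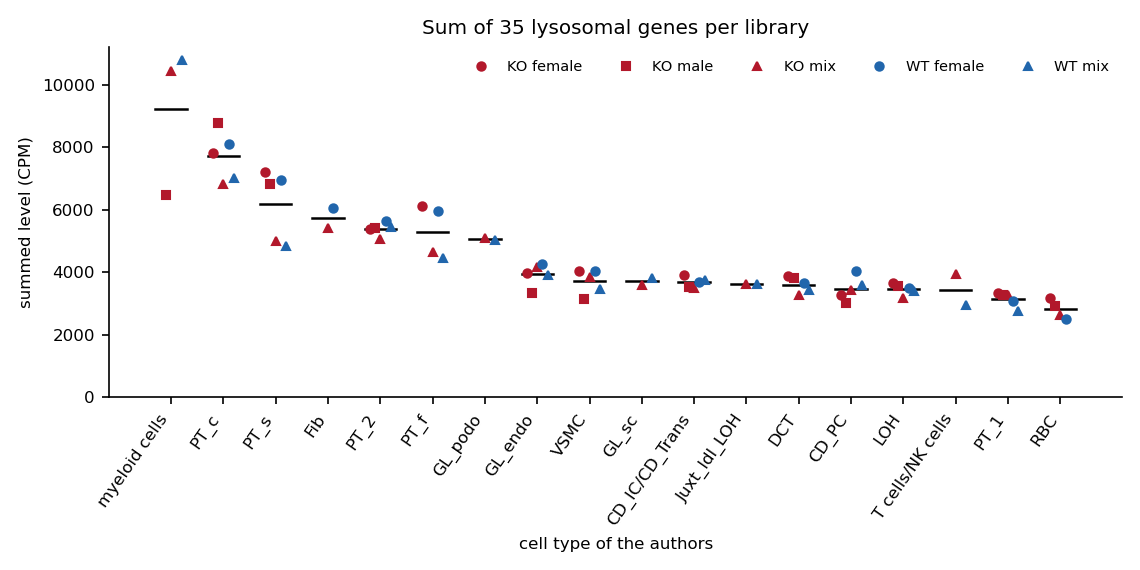
Summed level of the 35 members in CPM (vertical axis, from 0) for each library (points) in each cell type. Myeloid cells reach 10789 CPM and PT_c 8762 CPM, and in PT_s and PT_c the points of KO and WT libraries lie among each other.

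Red blood cells do not keep lysosomes, so the members' UMIs there serve as a measure of free RNA in the droplets. In every library shared with RBC, 28 of 35 members were above their RBC level in PT_c, 25 in PT_s, 24 in PT_2, 23 in myeloid cells, 22 in fibroblasts and 5 in PT_1. Haemoglobin fills much of the RBC total. With nuclear genes other than haemoglobin as the denominator the counts were 21 in PT_c, 19 in myeloid cells, 12 in PT_s, 11 in fibroblasts, 7 in PT_2 and 0 in PT_1, where 22 were below RBC. Myeloid cells and fibroblasts shared 2 libraries with RBC, and PT_c, PT_s, PT_2 and PT_1 shared 4. Being above in every shared library is easier to meet with 2, so these counts are not directly comparable. After each cell was thinned to 1000 UMIs, a mean of 7.23 members had a UMI in a myeloid cell, 5.55 in PT_c, 4.47 in PT_s and 2.42 in RBC.

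Among the membrane proteins, Lamp1 and Lamp2, the main glycoproteins of the lysosomal membrane, were highest in PT_c. Lamp1 had 502, 505 and 741 CPM in KO female, KO male and KO mix, against 479 and 748 CPM in WT female and WT mix. Both mixed libraries were high and the 3 single-sex libraries low. Cd63, a tetraspanin of late endosomes and lysosomes, reached 2323, 1740 and 1248 CPM in PT_s of the KO libraries in the same order, against 2276 and 1067 CPM in the WT libraries. Here the mixed libraries were the low ones in both genotypes. Cd63 kept a UMI in 78.0% of PT_c cells thinned to 1000 UMIs and in 51.3% of RBC, which keep no lysosomes. Before thinning, the shares were 98.5% and 71.0%, at median depths of 4780.5 and 1910 UMIs. Scarb2, which carries glucocerebrosidase to the lysosome, was highest in GL_sc at 68.1 CPM, and Npc1, a cholesterol exporter, in Juxt_ldl_LOH at 27.4 CPM. In KO mix and WT mix these rest on 9 and 10 UMIs of Scarb2 and on 7 and 5 UMIs of Npc1.

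Of the proteases, Ctsb, Ctsc, Ctsh, Ctss and Ctsz were highest in myeloid cells, Lgmn, Tpp1 and Ctsa in PT_c, Ctsl in podocytes and Ctsd in DCT. Ctss, the cathepsin of antigen-presenting cells, had 1247 and 1255 CPM in myeloid cells of KO male and KO mix, against 1139 CPM in WT mix. T cells and NK cells followed at 230 CPM in KO mix and 80.7 CPM in WT mix, and the myeloid mean was 676-fold that of the median type. The summed myeloid markers were at 2428 CPM in T and NK cells and 31854 CPM in myeloid cells, and their part in that second place was not tested. After thinning, 65.9% of myeloid cells, 0.687% of RBC and 0.0338% of PT_s cells had a Ctss UMI.

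Ctsc, the cathepsin that activates serine proteases of leukocytes, had 538 and 650 CPM in myeloid cells of KO male and KO mix, against 691 CPM in WT mix. It was also present in the thick ascending limb of the loop of Henle (LOH), at 104, 98.4 and 61.0 CPM in KO female, KO male and KO mix, against 135 and 56.8 CPM in WT female and WT mix. The next tubule type was DCT at 39.9 ± 23.7 CPM (SD, n = 5). After thinning, 47.6% of myeloid cells, 8.09% of LOH cells and 1.03% of RBC had a Ctsc UMI. Ctsb, a cysteine protease found in most cells, had 489 and 766 CPM in myeloid cells of KO male and KO mix, against 979 CPM in WT mix.

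Ctsl, a cysteine protease of the same family, was highest in podocytes, with 1368 CPM in KO mix, against 1512 CPM in WT mix, where the sums rest on 26 and 30 cells. Lgmn, the asparaginyl endopeptidase that processes other lysosomal enzymes, was the clearest proximal tubule protease, with 877, 813 and 876 CPM in PT_c of KO female, KO male and KO mix, against 954 and 919 CPM in WT female and WT mix. All 5 libraries were close to each other, and PT_2 came second at 530 ± 70.8 CPM (SD, n = 5). Tpp1, a tripeptidyl peptidase, and Ctsa, which protects neuraminidase, were also highest in PT_c. Ctsd, the main aspartic protease, was highest in the distal nephron, at 450 ± 59.1 CPM in DCT and 407 ± 46.0 CPM in collecting duct principal cells (CD_PC, n = 5 each), which do not differ beyond their spread. Ctsh and Ctsz were highest in myeloid cells, at 334 and 426 CPM.

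Glycosidases had their highest mean in more cell types than the proteases, but several of those means rest on few UMIs. Neu1, the lysosomal sialidase, had 333, 636 and 287 CPM in PT_c of KO female, KO male and KO mix, against 365 and 354 CPM in WT female and WT mix. KO male stood above the other 4 libraries, which overlapped. Fuca1, a fucosidase, was highest in podocytes, with 250 CPM in KO mix, against 135 CPM in WT mix, while PT_c held 158 ± 13.0 CPM (n = 5). Hexa, the alpha subunit of hexosaminidase A, had 48.9 and 197 CPM in myeloid cells of KO male and KO mix, against 251 CPM in WT mix, and Man2b1, an alpha-mannosidase, had 122 and 261 CPM, against 275 CPM in WT mix. The KO male values of Hexa and Man2b1 rest on 2 and 5 UMIs. Idua, which acts on heparan and dermatan sulfate, had 24.4 and 0 CPM in myeloid cells of KO male and KO mix, against 8.22 CPM in WT mix, which rest on 1, 0 and 2 UMIs. Gusb was highest in myeloid cells at 75.9 CPM, Glb1 in PT_s at 93.2 CPM, Naglu in PT_f at 37.3 CPM, Manba in PT_2 at 23.9 CPM, Gaa in VSMC at 42.2 CPM and Gla in Juxt_ldl_LOH at 13.6 CPM. In the libraries ranked, Naglu in PT_f rests on 5 to 18 UMIs each and Gaa in VSMC on 3 to 6. Gla in Juxt_ldl_LOH rests on 3 UMIs in KO mix and 3 in WT mix.

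Of the sulfatases, Arsb, which removes sulfate from dermatan sulfate, had 118, 183 and 123 CPM in PT_c of KO female, KO male and KO mix, against 123 and 143 CPM in WT female and WT mix. KO male was again the highest library. Ids, which removes sulfate from heparan and dermatan sulfate, had 91.5 CPM in fibroblasts of KO mix, against 45.2 CPM in WT female. These rest on 4 and 5 UMIs. GL_sc had 51.6 CPM of Ids in KO mix and 84.6 CPM in WT mix, which does not differ from fibroblasts beyond the spread. Arsa was highest in GL_endo, at 21.4 CPM.

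The genes of lipid breakdown were led by Psap, the precursor of the saposins that present sphingolipids to their hydrolases. Psap had 489 and 1676 CPM in myeloid cells of KO male and KO mix, against 1937 CPM in WT mix, and a UMI in 72.6% of thinned myeloid cells but 13.5% of thinned RBC. Npc2, which hands cholesterol to Npc1, had 220 and 606 CPM there, against 761 CPM in WT mix. In both genes the 20-cell library KO male was the lowest. Lipa, the acid lipase, was highest in PT_c, with 412, 421 and 250 CPM in KO female, KO male and KO mix, against 429 and 290 CPM in WT female and WT mix. Myeloid cells had 225 CPM of Lipa in KO mix and 280 CPM in WT mix, close to PT_c of the same libraries. In KO male they had 147 CPM, which rests on 6 UMIs. Asah1, acid ceramidase, reached 149 CPM in PT_f and 147 CPM in myeloid cells, which do not differ beyond their spread, and Ppt1 and Grn were highest in myeloid cells at 202 CPM each.

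Across the 18 cell types, the profiles most alike by Pearson's r of log2 of the mean CPM plus 1 were those of Lamp2 and Naglu (0.90), Gusb and Npc2 (0.85), Lamp1 and Tpp1 (0.84), Npc2 and Grn (0.84), Psap and Grn (0.83) and Arsb and Lipa (0.82). The least alike were Ctsc and Neu1 (-0.64). The points share libraries and the free RNA in them, and the values describe these 18 types only. Beyond the members, 32 further lysosomal genes were in the matrix. Of these, 11 were highest in immune cells, 9 in tubule segments outside the proximal tubule, 5 in podocytes, 4 in the proximal tubule and 3 in vessel and stroma, while the members divided into 13, 3, 2, 13 and 4.

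Male and female cells were compared in 3 pairs, namely KO male against KO female libraries and cells called male against cells called female within KO mix and within WT mix, by Y-linked genes or Xist. In male cells of the straight proximal tubule, PT_s, Psap, Asah1, Npc1, Scarb2, Arsb and the glycosidases Gusb, Glb1, Neu1 and Man2b1 rose, and Lipa, Lgmn, Cd63, Ctsb and Ctsz fell. By edgeR's quasi-likelihood test with the pair as a block, 1447 of 7313 genes had an adjusted p below 0.05, or 19.8%, and 14 of the 29 members tested did, or 48.3%. Higher in male were 10.3% of all genes and 9 members, and lower in male 9.49% of all genes and 5 members. The other 6 members, Arsa, Ctsc, Ctss, Gla, Hexa and Idua, had 0 to 5.43 CPM in each sum and did not pass the filter on low counts.

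By role, 4 of 8 tested glycosidases rose and 0 fell, while 0 of 8 proteases rose and 3 fell. Of 5 membrane proteins 2 rose and 1 fell, of 2 sulfatases 1 rose, and of 6 genes of lipids and granulin 2 rose and 1 fell. The median log2 fold change was 0.14 over the members tested and -0.01 over all genes tested. These counts are a description of the list.

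Psap, at chr10:60277628-60302600, had 434 CPM in male and 211 CPM in female PT_s cells of the KO libraries. It had 339 CPM in male and 198 CPM in female cells of KO mix, and 420 CPM in male and 201 CPM in female cells of WT mix. All 3 male sums were above all 3 female sums, and the log2 fold change was 1.11 ± 0.12 (SE, edgeR adjusted p = 7.00e-07).

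Gusb, beta-glucuronidase, at chr5:129989011-130003049, has long been known as an androgen-responsive gene of the mouse kidney. It had 71.2 CPM in male and 8.72 CPM in female PT_s cells of the KO libraries, 36.9 and 8.11 CPM in male and female cells of KO mix, and 33.1 and 19.0 CPM in male and female cells of WT mix. The sexes did not overlap, and the log2 fold change of 2.73 ± 0.30 (SE, edgeR adjusted p = 9.32e-06) was the highest of the members. The sums of the mixed libraries rest on 29 male and 11 female UMIs in KO mix and 35 male and 7 female UMIs in WT mix.

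Asah1, at chr8:41340646-41397644, had 68.9 CPM in male and 23.6 CPM in female cells of the KO libraries, 77.6 and 37.6 CPM in male and female cells of KO mix, and 46.4 and 13.6 CPM in male and female cells of WT mix. Every male sum was above every female sum, with a log2 fold change of 1.55 ± 0.20 (SE, edgeR adjusted p = 4.60e-06). Npc1 had 18.2 CPM in male and 8.35 CPM in female cells of the KO libraries, 19.1 and 11.1 CPM in those of KO mix, and 16.1 and 5.43 CPM in those of WT mix. The sexes stood apart here as well (log2 fold change 1.22 ± 0.27, edgeR adjusted p = 0.00247).

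The beta-galactosidase gene Glb1, at chr9:114401078-114474379, whose promoter holds the longer match, had 153 CPM in male and 70.6 CPM in female cells of the KO libraries. In male and female cells it had 114 and 62.7 CPM in KO mix and 80.4 and 57.1 CPM in WT mix. The sexes were apart (log2 fold change 1.07 ± 0.16, edgeR adjusted p = 4.55e-05). Neu1, at chr17:34931253-34937297, had 457 and 276 CPM in male and female cells of the KO libraries, 315 and 221 CPM in those of KO mix, and 293 and 215 CPM in those of WT mix. The lowest male sum was close above the highest female sum (log2 fold change 0.73 ± 0.12, edgeR adjusted p = 0.000154). Arsb had 124 and 61.6 CPM in male and female cells of the KO libraries, 71.2 and 48.7 CPM in those of KO mix, and 88.9 and 54.3 CPM in those of WT mix, again with no overlap (log2 fold change 0.97 ± 0.17, edgeR adjusted p = 0.000197).

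Genes that were lower in male cells were led by Lipa, at chr19:34492316-34527474, with 94.8 and 204 CPM in male and female cells of the KO libraries, 52.1 and 112 CPM in those of KO mix, and 69.1 and 97.8 CPM in those of WT mix. The highest male sum was just below the lowest female sum (log2 fold change -0.81 ± 0.16, edgeR adjusted p = 0.000609). Lgmn, at chr12:102394082-102439728, another gene with the longer match, had 380 and 579 CPM in male and female cells of the KO libraries, 318 and 545 CPM in those of KO mix, and 328 and 519 CPM in those of WT mix. The sexes were well apart (log2 fold change -0.53 ± 0.11, edgeR adjusted p = 0.00123). Cd63 had 1740 and 2323 CPM in male and female cells of the KO libraries, 988 and 1485 CPM in those of KO mix, and 971 and 1530 CPM in those of WT mix. It was lower in male cells within each pair, but the KO male library was above the female cells of both mixed libraries (log2 fold change -0.41 ± 0.10, edgeR adjusted p = 0.00377).

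**Figure D3:**
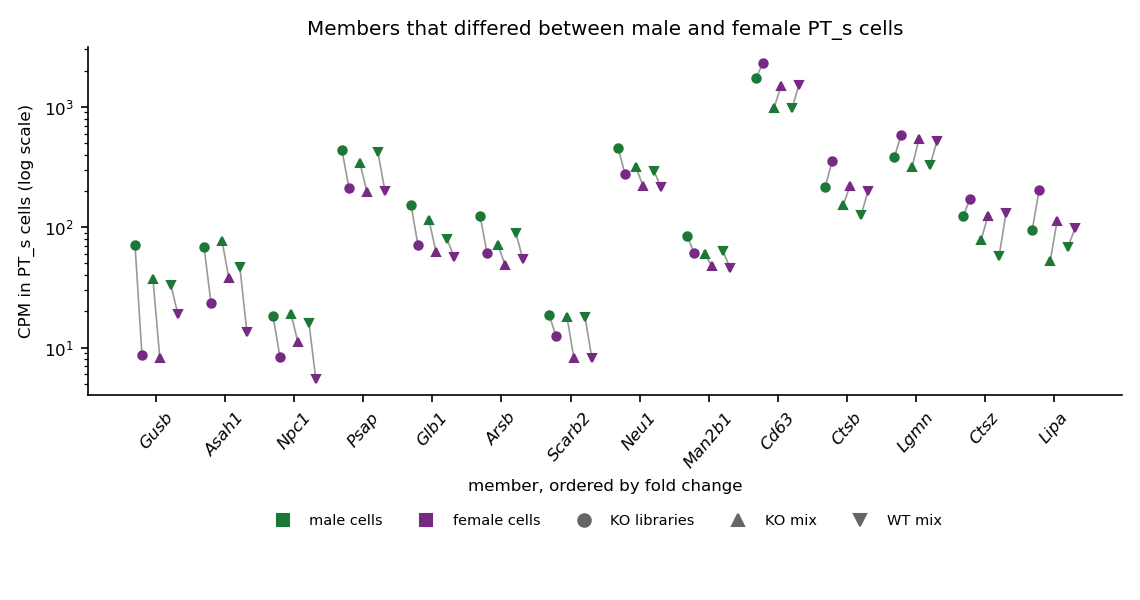
CPM (log scale) of the 14 members with an edgeR adjusted p below 0.05 in male and female PT_s cells, with male cells to the left of female cells in each pair and 1 point for each of the 3 pairs. Gusb runs from 8.11 to 71.2 CPM, and the sexes overlap only for Cd63, Ctsb and Man2b1. The 14 were chosen by a test on these same sums, and overlap was not counted for all called genes.

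The remaining 4 members past the threshold were Scarb2 and Man2b1, higher in male cells, and Ctsb and Ctsz, lower, with log2 fold changes of -0.55 to 0.89 and edgeR adjusted p-values of 0.00813 to 0.0196. All 14 had the same direction in 3 of 3 pairs, but they were chosen by a test on these same pairs, so this adds no support. The same holds where the sexes did not overlap, which was not counted over all genes. The WT female library entered none of the pairs, and for all 14 its PT_s level lay beyond all 3 male sums on the female side, as it did for 1164 of all 1447 called genes (80.4%). It had 194 CPM of Psap, 8.57 of Gusb, 17.4 of Asah1 and 199 of Lipa. Just outside the threshold were Ctsl (log2 fold change -0.36, edgeR adjusted p = 0.0538), Lamp2 (0.32, 0.0631) and Ppt1 (-0.55, 0.0988).

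Depth and other cells were compared beside these values. Male and female PT_s cells had medians of 8708 and 5869 UMIs in the KO libraries, 6555 and 5013.5 in KO mix and 4761.5 and 3998 in WT mix, so male cells were deeper in each pair. The median mitochondrial share was 14.0% in male and 13.8% in female cells of the KO libraries, 28.2% and 31.0% in KO mix, and 29.4% and 32.4% in WT mix. The 8 myeloid markers summed to 35.9 CPM in male and 22.0 CPM in female cells of the KO libraries, 15.3 and 108 CPM in KO mix, and 166 and 19.0 CPM in WT mix, with 1 to 5 of the 8 at 0 in each sum. They did not go one way over the pairs, and the part of depth in the member differences was not tested. Without the pair as a block 3 members were called (Psap, Asah1 and Gusb). Without the KO mix pair 8 were called, and Lgmn, Cd63, Ctsb, Ctsz, Man2b1 and Scarb2 were not, while Cd63, Ctsb and Ctsz were lost without the WT mix pair and Npc1, Man2b1 and Scarb2 without the KO libraries.

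In PT_c, 302 of 6591 genes were called between the sexes, or 4.58%, and 2 of 28 members were. Psap had 915 CPM in male and 372 CPM in female cells of the KO libraries, 554 and 288 CPM in those of KO mix, and 596 and 319 CPM in those of WT mix (log2 fold change 1.06 ± 0.13, edgeR adjusted p = 1.31e-06). Neu1 had 636 and 333 CPM in male and female cells of the KO libraries, 405 and 266 CPM in those of KO mix, and 352 and 252 CPM in those of WT mix (log2 fold change 0.69 ± 0.13, edgeR adjusted p = 0.00106). For both genes every male sum was above every female sum. Without the KO mix pair, or without the pair as a block, Psap was called and Neu1 was not.

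Whether the fold between the sexes differed from PT_s to PT_c was tested as an interaction, chosen after the separate results were seen. Of 7933 genes 178 were called, or 2.24%, and of 30 members 2 were. The log2 fold change of male over female cells was higher in PT_s than in PT_c by 1.06 ± 0.26 for Glb1 (SE, edgeR adjusted p = 0.0180) and by 1.84 ± 0.48 for Gusb (edgeR adjusted p = 0.0330). In PT_c, Glb1 had 75.8 and 60.0 CPM in male and female cells of the KO libraries, 45.0 and 54.4 CPM in those of KO mix, and 42.3 and 54.5 CPM in those of WT mix, so that the sexes overlapped there. Gusb had 21.5 and 10.1, 15.0 and 8.43, and 9.61 and 8.38 CPM in male and female PT_c cells of the same pairs. These values rest on 25 and 34, 5 and 11, and 5 and 2 UMIs. In PT_c alone Gusb did not pass the filter on low counts. It entered the interaction because the filter there ran over both types together. For Lipa, which was lower in male PT_s cells, the difference was -0.73 ± 0.21 and did not pass (edgeR adjusted p = 0.0516).

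**Figure D4:**
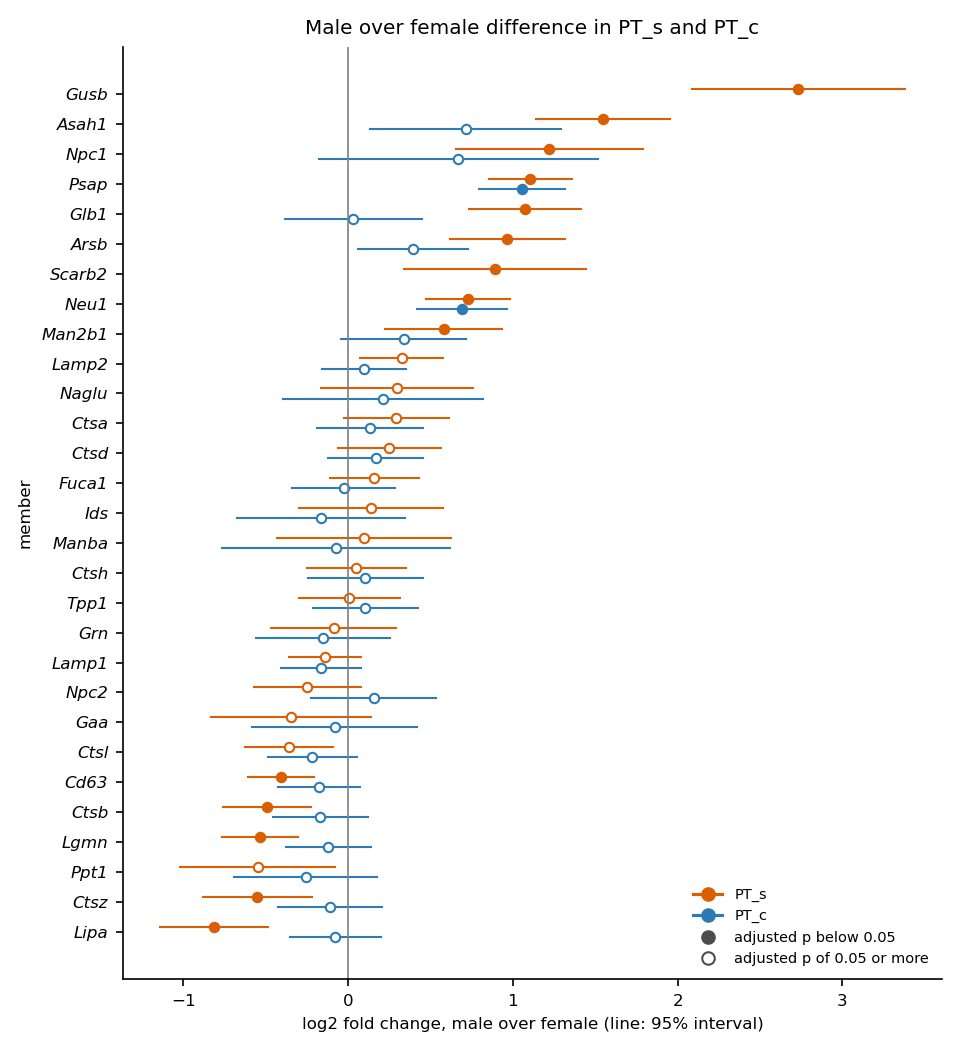
Log2 fold change of male over female cells with its 95% interval (horizontal axis) for the members (vertical axis) in PT_s and PT_c, where filled points have an edgeR adjusted p below 0.05. Psap and Neu1 are filled in both types, and Gusb reaches 2.73 in PT_s.

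The cells of PT_s, PT_c, PT_1 and PT_2 were also summed, with PT_f left out. In that sum 1654 of 9142 genes, or 18.1%, and 13 of 30 members were called, 8 higher and 5 lower in male cells. In LOH 9 of 4098 genes, or 0.22%, and 0 of 19 members were called, and 0 of those 19 had an unadjusted p below 0.05 by edgeR. DESeq2 and limma-voom also called 0 members there. PT_1, PT_2 and PT_f did not hold 20 cells in every sum.

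The other lysosomal genes of the list gave 5 higher and 1 lower of 22 tested in male PT_s cells. Among those higher were Galns, a sulfatase (log2 fold change 2.84), Galc, a galactocerebrosidase (0.79), the sialic acid transporter Slc17a5 (0.62) and the membrane protein Tmem192 (0.68), and lower was the cathepsin Ctsf (-1.35). Of 4 tested genes of lysosomal sorting, the mannose 6-phosphate receptor Igf2r was higher (1.13). Of 2 cathepsin inhibitors, Cst3 was lower (-0.55), and of the family of Tfeb 0 of 1 tested passed the threshold.

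The comparison of Fame knockout with wild type asked whether loss of the gene moved these transcripts in any cell type. In none did a member pass. Over 11 cell types with at least 2 libraries of each genotype, 282 pairs of a member and a cell type were tested, and edgeR called 0 of them and 0 of 68554 pairs of all genes, or 0%. At an unadjusted p below 0.05 there were 0 of 282 member pairs and 284 of 68554 pairs of all genes. This fit leaves run and sex composition in the spread between libraries. With the sex composition as a block, 11 member pairs and 3131 pairs of all genes had an unadjusted edgeR p below 0.05. With the run as a block, 3 and 1541 did, and edgeR called 0 members with either block. DESeq2 and limma-voom also called 0 members.

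The summed level of the members in PT_s was 7191, 6823 and 5006 CPM in KO female, KO male and KO mix, against 6962 and 4831 CPM in WT female and WT mix. Within each genotype the mixed library was lowest, and the genotypes overlapped, with a log2 ratio of 0.11. In PT_c the sums were 7798, 8762 and 6833 CPM in the KO libraries, against 8106 and 7009 CPM in the WT libraries (log2 ratio 0.04). Over the 11 types the log2 ratio of the sums ran from -0.24 in CD_PC to 0.18 in PT_1.

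PT_1, PT_2 and CD_PC were the types of the 11 in which the sums of the genotypes did not overlap. PT_1 had 3345, 3265 and 3260 CPM in the KO libraries, against 3062 and 2758 CPM in the WT libraries. Collecting duct principal cells had 3260, 3020 and 3411 CPM in the KO libraries, against 4045 and 3571 CPM in the WT libraries. In PT_2 the sums were 5383, 5408 and 5070 CPM in the KO libraries, against 5634 and 5457 CPM in the WT libraries, a log2 ratio of -0.07. The knockout was the higher genotype in PT_1 and the lower in CD_PC and PT_2. A sum over the members was not tested. With so few libraries the genotypes can fall apart by the spread alone, and how often sums of other genes do was not counted. The median log2 fold change of the members tested ran from -0.29 in CD_PC to 0.16 in PT_1, compared with -0.01 to 0.02 for all genes tested in the same 11 types.

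The member with the lowest unadjusted p of all was Grn, progranulin, in CD_PC (named after its values were seen). It had 56.9, 60.0 and 77.4 CPM in the KO libraries, against 90.0 and 136 CPM in the WT libraries, so that the genotypes did not overlap (log2 fold change -0.74). In LOH the lowest p belonged to Naglu, the N-acetylglucosaminidase of heparan sulfate breakdown, with 9.09, 7.79 and 6.10 CPM in the KO libraries, against 12.6 and 13.0 CPM in the WT libraries (log2 fold change -0.70), followed by Arsb (-0.61) and Arsa (0.71). In PT_2 it belonged to Fuca1, with 105, 115 and 124 CPM in the KO libraries, against 150 and 171 CPM in the WT libraries (log2 fold change -0.49), followed by Ctsa (-0.30) and Glb1 (0.45).

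In PT_s the lowest p-values belonged to Hexa (log2 fold change -0.58), Asah1 (0.65) and Lamp2 (0.33). Asah1 had 23.6, 68.9 and 52.9 CPM in the KO libraries, against 17.4 and 45.1 CPM in the WT libraries, and within both genotypes the female library was the lowest. In PT_c they belonged to Glb1 (0.23), Npc1 (0.38) and Hexa (-0.28), and in PT_1 to Ctsh (-0.53), Ctsa (0.66) and Ctsb (0.50). In none of these did edgeR's adjusted p pass the threshold. With female cells alone, KO male and all cells of the mixed libraries not called female were left out. There 0 members were called in the 5 types that could be tested, with and without the run as a block. At an unadjusted p under 0.05, 0 members stood in each type without the block and 0 to 2 a type with it.

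Between the runs, Ctsl was low and Lamp1 high in run 3 in each of the 11 cell types tested. With genotype in the model, edgeR called 10444 of 68554 pairs of a gene and a cell type between run 3 and run 2, or 15.2%, and 47 of 282 member pairs, or 16.7%. The members as a list were thus near the share of all genes. Ctsl and Lamp1 are described as the members called in the most types. How many of all genes have runs that do not overlap was not counted. Run 3 holds both mixed libraries and run 2 the single-sex ones, so run and sex composition cannot be told apart in the full libraries. The mitochondrial share, which was higher in both run 3 libraries than in all run 2 libraries, moved with the runs as well, and its part in these differences was not tested.

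Ctsl, at chr13:64361890-64370772, had 197 and 161 CPM in PT_s of KO mix and WT mix (run 3), against 740, 620 and 686 CPM in KO female, KO male and WT female (run 2). In LOH it had 109 and 117 CPM in run 3, against 354, 333 and 330 CPM in run 2. The runs did not overlap in any of the 11 types, the log2 fold change of run 3 over run 2 lay between -2.02 in CD_PC and -0.86 in PT_2, and all 11 edgeR adjusted p-values were at most 0.0497.

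Lamp1, at chr8:13159161-13175338, went the other way, with 617 and 609 CPM in PT_s of KO mix and WT mix, against 463, 375 and 418 CPM in KO female, KO male and WT female. In LOH it had 349 and 370 CPM in run 3, against 192, 173 and 176 CPM in run 2. The runs did not overlap in any of the 11 types, with log2 fold changes of 0.75 in PT_s to 1.32 in VSMC. Of the 11 types 10 were called, and PT_s was not (edgeR adjusted p = 0.118).

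**Figure D5:**
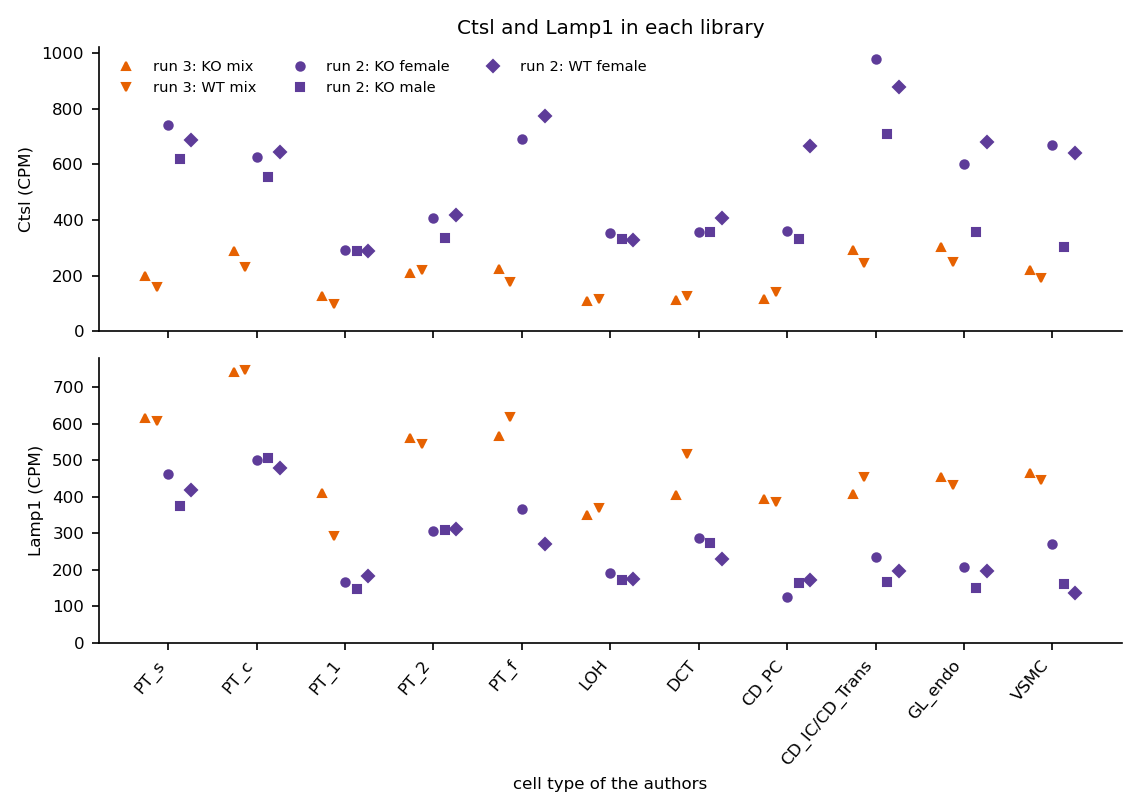
CPM of Ctsl (upper panel) and Lamp1 (lower panel) in each library for 11 cell types, with the run 3 libraries to the left of the run 2 libraries in each type and both vertical axes from 0. In PT_s, Ctsl is at 161 to 197 CPM in run 3 and 620 to 740 CPM in run 2.

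The other called pairs were fewer per gene. Psap was higher in run 3 in 5 types and Cd63 lower in 4. Tpp1, Gaa and Grn were higher in 2 types each, and Ctsb and Ctsc lower in 2 each. Lipa was higher in 1 type and lower in 1, Npc1, Ctsh, Lgmn and Arsb were higher in 1 type each, and Scarb2 was lower in 1.

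A comparison of female cells took only the cells called female from the mixed libraries, or 40.5% of KO mix and 11.3% of WT mix. KO female and WT female entered whole. This leaves out cells called male, but how cells were chosen then goes with the run. Ctsl was lower in run 3 in all 5 types that could be tested. Its log2 fold change was -1.45 ± 0.13 in PT_s, -0.90 ± 0.13 in PT_c, -1.22 ± 0.22 in PT_f, -1.39 ± 0.17 in LOH and -1.93 ± 0.26 in CD_PC (SE). Lamp1 was higher in the same 5 types, by 0.77 ± 0.12, 0.88 ± 0.12, 1.27 ± 0.22, 1.05 ± 0.15 and 1.34 ± 0.25. All 10 edgeR adjusted p-values were at most 0.000273. In every alternative the direction of Ctsl and Lamp1 held in each type, and in LOH Ctsl was called each time, whereas in PT_s it lost the call in 4 of 11. The number of pairs of a member and a cell type called was 19 without KO mix, 15 without WT female, 16 without WT mix, 28 without KO female and 77 without KO male.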

How the data were processed

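Raw UMI counts per gene and cell were made by the authors with Cell Ranger 4.0.0 on mm10 and deposited after their cell filter, with the cell types assigned in Seurat 3.2.2.9001 and the library and run of each cell. A mitochondrial percentage and a Scrublet doublet score accompany every cell as deposited, and neither was used to remove cells in the results given first. Of the annotation, 1 column was not used.

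Per library and cell type (at least 20 cells), counts were added up and tested two-sided with edgeR 4.0.16 (quasi-likelihood, TMM, filterByExpr, robust) in R 4.3.3. Benjamini-Hochberg adjustment ran over all genes tested in a cell type, at a threshold of 0.05. CPM is relative to all UMIs of a sum. Knockout was fitted against wild type alone, run with genotype, and sex with the pair as a block. The pair is the library for both mixed libraries and the genotype and run for KO male and KO female. Cells of mixed libraries were called male with a UMI of Ddx3y, Eif2s3y, Kdm5d or Uty and none of Xist, and female by the reverse. In KO mix 425 cells were called male and 1445 female, and in WT mix 800 male and 378 female, with 45.5% and 63.7% called neither. The single-sex libraries entered whole. WT female shares its sex composition and run with KO female, as WT mix does with KO mix, and blocks of either kind were alternatives.

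The members and lists were chosen with earlier results of these data known. Values in every library are given for the 2 members of each role with the highest mean over cell types and the 6 with the largest ratio of the highest to the median type. Up to 10 members past the threshold, or the 3 of lowest p in a cell type where none passed, are named in a comparison. Others were named after their values were seen. Alternatives were DESeq2 1.42.0, limma-voom (limma 3.58.1), no filter, 20 counts in every library, at most 25% mitochondrial UMIs, at least 50 cells, the 5% highest doublet scores left out, thinning to 1000 UMIs, blocks, and each library left out in turn. Female cells alone, the sex of all cells called by the sex genes, and the test between PT_s and PT_c were added after seeing the data. The tests were checked on simulated counts. Promoters and coordinates are from RefSeq GRCm38.p6, matched by symbol. Tables and figures were made with Python 3.11.15. A gene of the list of other lysosomal genes is counted there but is not reported here by name.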

Additional observations from a re-analysis of the deposited data

Results flagged for a closer look

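The difference between male and female cells was not the same in both proximal segments for 2 members, by the interaction of edgeR described above. The log2 fold change of male over female cells was higher in PT_s than in PT_c by 1.06 for Glb1 (edgeR adjusted p = 0.0180) and by 1.84 for Gusb (edgeR adjusted p = 0.0330). In PT_s, Glb1 averaged 116 ± 36.5 CPM in male and 63.5 ± 6.83 CPM in female cells, and in PT_c it averaged 54.4 ± 18.7 CPM in male and 56.3 ± 3.21 CPM in female cells (SD over 3 pairs). Gusb averaged 47.1 ± 21.0 CPM in male and 11.95 ± 6.13 CPM in female PT_s cells, and 15.4 ± 5.98 CPM in male and 8.97 ± 0.98 CPM in female PT_c cells. In each type the male cells of the KO libraries held the highest Gusb value. In PT_c the female sum of WT mix rests on 2 UMIs of Gusb, which did not pass the filter on low counts in PT_c alone.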

How the results depend on the processing

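Over all cell types, counts for knockout and for run are of pairs of a gene, or a member, and a cell type. Knockout against wild type called 0 member pairs in each alternative, and 0 gene pairs except 16 with no filter, 15 with the run as a replicate block, 93 with the sex composition as a replicate block, 23 in female cells with the run as a block, and 0 to 25 with a library left out. For the runs, DESeq2 called 4274 gene pairs and 22 member pairs, 20 counts in every library gave 5797 gene pairs, female cells alone 5552 gene pairs and 19 member pairs in 5 types, and leaving out a library 3644 to 17756 gene pairs and 15 to 77 member pairs. For the sexes in PT_s, DESeq2 called 661 genes and 8 members, 20 counts in every sum 587 and 9, no replicate block 445 and 3, and leaving out a pair 8 to 13 members. In PT_c the genes numbered 97 with DESeq2, 134 with 20 counts and 76 with no block, and 191 to 348 without a pair. There 1 member was called with no block and 1 to 2 without a pair. In the sum of PT_s, PT_c, PT_1 and PT_2, DESeq2 called 790 genes and 8 members, 20 counts 899 genes and no block 439 genes and 3 members. In LOH, DESeq2, no block and the mixed libraries alone called 0 genes, limma-voom 3, no filter 21, and leaving out a pair 0 to 30. In PT_s, Psap, Asah1 and Gusb passed the threshold in every alternative run for them, while Glb1, Neu1, Arsb and Lipa each lost it in 1.

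The log2 ratio of the summed members in PT_1 was 0.10 to 0.25 with a library left out, and that in PT_2 was 0.0714 at no more than 25% mitochondrial UMIs. The same filter turned Ctsa in PT_2 to 0.32, and Glb1 in PT_2 turned to -0.00343 when blocked for sex composition and was -0.0355 to 0.77 with a library left out (-0.0355 without KO male). Of the members highest in a class, other tubule segments had 2 to 5, vessel and stroma 2 to 4 and podocytes 0 to 2 with a library left out, and podocytes 0 with at least 50 cells. The proximal tubule and immune cells, with 13 each at first, had 9 and 15 after thinning to 1000 UMIs. They had 10 and 16 with at least 50 cells. Without the 5% highest doublet scores they had 10 and 15, and vessel and stroma had 6. With a library left out they had 11 to 14 and 14 to 15. The cause of these changes was not tested. Precision is limited by 2 wild type libraries, and by sums of 1 to 29 UMIs for the low members in mixed libraries.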
